A study of Mus musculus with 18 samples.

Results

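The 439 genomic intervals described here are strong autosomal hotspots of meiotic double-strand breaks that shared no base with any listed H3K4me3 interval. The list holds the H3K4me3 intervals common to B6 and Ewsr1 CKO, so a hotspot outside it can still have H3K4me3, or an interval found in a single genotype. They were chosen from the deposited DMC1 values of B6 spermatocytes. A hotspot was called strong when its DMC1 value was at or above the autosomal upper quartile, 98.2 RPM, a count of reads scaled to the size of the library. Of 8744 autosomal hotspots, 2186 met that threshold, and 1747 of these overlapped a listed H3K4me3 interval by at least 1 bp. The other 439 (20.1%, Wilson 95% interval 18.5 to 21.8%) are called unlisted hotspots below, and the 1747 are called listed hotspots.

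The study used ChIP-seq on spermatocytes of mice 14 days after birth, with 18 samples in all. The values used here came from 5 groups of 2 samples each. B6 (strain C57BL/6J) was the control for DMC1. Ewsr1 CKO mice had a conditional knockout of Ewsr1 with Stra8-iCre, a recombinase driven from a germ cell promoter, and were profiled for DMC1, H3K4me3 and H3K36me3. Prdm9 het mice (Prdm9+/-) carried a single intact copy of Prdm9 and were profiled for DMC1. DMC1 in each genotype and H3K36me3 had a single deposited column, and H3K4me3 had 1 column over the DMC1 hotspots and another over its own intervals. Whether a column combines both samples or holds 1 of them is not stated, so no value has a replicate error and no difference could be compared with the spread between mice. The labels do not say whether the 2 samples of a group came from separate mice. No Ewsr1 or Prdm9 expression was analysed here, so the genotypes were taken from the labels.

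PRDM9 is a zinc-finger methyltransferase that binds its sequence motif in early meiotic cells and places H3K4me3 and H3K36me3 on the surrounding nucleosomes. SPO11 then cuts DNA at a subset of the marked places, and the recombinase DMC1 coats the resulting single strands, so DMC1 ChIP-seq shows where breaks formed and how much single-stranded DNA they carried. EWSR1 is an RNA-binding protein of the FET family. H3K4me3 also marks active gene promoters independently of PRDM9.

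Few hotspots of any set lay at the end of a gene. An outer end of a protein-coding gene (RefSeq, GRCm38.p6, the assembly of mm10; the gene table gives no strand, so first and last exons were not told apart) fell inside 7 of 439 unlisted hotspots (1.59%, Wilson interval 0.774 to 3.25%), 58 of 1747 listed ones (3.32%, 2.58 to 4.27%) 2.85% of all autosomal hotspots and 2.52% of weaker hotspots without an interval. The genes at the 7 were Yipf7, Plag1, Rad21, which encodes a cohesin subunit, Rbm26, Slc7a13, Galnt7 and Fabp7, a fatty acid binding protein gene, named after their values were seen. H3K4me3 in Ewsr1 CKO was between 0.594 and 0.762 RPM at 6 of them and 2.16 RPM at Fabp7. Transcription starts came from a promoter table that holds 79.6% of autosomal protein-coding genes. It holds 69.5% of those on chromosome 8 and 54.4% of those on chromosome 15, the lowest of the covered autosomes. Starts in that table fell inside 6 of 413 unlisted hotspots (1.45%), 24 of 1670 listed ones (1.44%) and 1.65% of all autosomal hotspots, with a chromosome that the table does not cover left out. These starts belonged to Zfp961, a zinc-finger gene, Sumo3, which encodes a ubiquitin-like modifier, Fabp7, Spata48, and the predicted genes Gm33609 and Gm39866. The 250 bases upstream of 5 of these starts are shown because H3K4me3 differed widely across these hotspots and the promoters differ in their CG dinucleotides, which are in capitals. All 5 are on the plus strand. Those of Sumo3 and Spata48 precede starts inside the gene, away from its outer ends. The outer end of Zfp961 in the gene table lay 0.007 kb outside the hotspot, so Zfp961 was counted among the starts only.

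Zfp961, chr8:71950816-71951065: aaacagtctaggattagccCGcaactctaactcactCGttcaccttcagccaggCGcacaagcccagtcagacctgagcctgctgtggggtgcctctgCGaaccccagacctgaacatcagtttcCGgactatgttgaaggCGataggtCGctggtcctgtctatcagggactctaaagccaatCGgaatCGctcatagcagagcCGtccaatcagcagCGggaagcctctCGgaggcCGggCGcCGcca

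Sumo3, chr10:77613459-77613708: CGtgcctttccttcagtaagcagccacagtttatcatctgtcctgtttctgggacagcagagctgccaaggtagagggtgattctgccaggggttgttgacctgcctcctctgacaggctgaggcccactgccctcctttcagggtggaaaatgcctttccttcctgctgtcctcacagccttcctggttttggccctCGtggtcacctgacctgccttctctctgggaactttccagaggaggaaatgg

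Fabp7, chr10:57784673-57784922: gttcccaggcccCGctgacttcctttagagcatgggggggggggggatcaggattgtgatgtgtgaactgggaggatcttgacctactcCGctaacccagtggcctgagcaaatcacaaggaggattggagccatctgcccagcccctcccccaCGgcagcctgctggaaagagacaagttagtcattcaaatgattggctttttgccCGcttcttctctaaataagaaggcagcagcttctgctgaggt

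Spata48, chr11:11489016-11489265: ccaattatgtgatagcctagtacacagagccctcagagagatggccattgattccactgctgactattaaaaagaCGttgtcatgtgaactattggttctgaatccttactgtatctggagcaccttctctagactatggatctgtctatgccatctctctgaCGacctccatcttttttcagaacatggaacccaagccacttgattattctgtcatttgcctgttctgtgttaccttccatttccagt

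Gm33609, chr5:97131524-97131773: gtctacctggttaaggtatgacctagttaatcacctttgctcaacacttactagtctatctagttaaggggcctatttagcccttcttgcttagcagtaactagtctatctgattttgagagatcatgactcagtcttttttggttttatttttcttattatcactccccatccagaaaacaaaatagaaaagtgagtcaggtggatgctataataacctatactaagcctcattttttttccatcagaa

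The Zfp961 stretch held 15 CG dinucleotides, against 4 for Fabp7, 2 each for Sumo3 and Spata48, and 0 for Gm33609. Across 32851 RefSeq promoter stretches of the same length the median was 6, with quartiles of 2 and 16. H3K4me3 in Ewsr1 CKO was 6.83 RPM at the Zfp961 hotspot, 2.57 RPM at Sumo3, 2.16 RPM at Fabp7, 0.578 RPM at Spata48 and 0.551 RPM at Gm33609. Gm39866, not printed, had 2 starts in its hotspot with 1 CG dinucleotide upstream of each, and 0.493 RPM. Among listed hotspots the order of CG and H3K4me3 was not the same: upstream of Sned1 there were 23 CG dinucleotides at 4.61 RPM, and upstream of 2 starts of Ppp1r16b 5 and 7 at 6.54 RPM. In B6, Ewsr1 CKO and Prdm9 het, in that order, the Zfp961 hotspot had 203, 195 and 64.3 RPM of DMC1. At Fabp7 the same values were 201, 158 and 39.5 RPM. The Zfp961 start lay at the edge of its hotspot, 1289 bp from the centre, whereas the Fabp7 start lay 162 bp from the centre. Sequence of the hotspots themselves was not analysed here.

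The median distance to the nearest end of a protein-coding gene was 46.9 kb at unlisted hotspots (quartiles 13.8 and 203 kb), 36.1 kb at listed ones (10.6 and 121 kb), 36.1 kb at all autosomal hotspots and 48.7 kb at weaker hotspots without an interval. The centre of the interval lay within a protein-coding gene in 51.7% of unlisted hotspots (Wilson interval 47.0 to 56.3%) and in 58.2% of listed ones (55.8 to 60.4%). The share over all autosomal hotspots was 52.8%. The gene table gives gene bounds only, so exons and introns were not told apart.

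Unlisted hotspots were somewhat weaker than listed ones within the strong class. Their median DMC1 value in B6 was 148 RPM, with quartiles of 117 and 197 RPM, against 170 RPM (127 and 245 RPM). The unlisted share fell with strength: in 4 equal classes of B6 DMC1, from the weakest to the strongest, there were 137 unlisted and 411 listed hotspots, then 133 and 414 (24.3% unlisted), 106 and 439 (19.4%), and 63 and 483 (11.5%). Below the threshold, 52.1% of autosomal hotspots had no listed interval. These values chose the hotspots and are given as a description. The 3 unlisted hotspots nearest above the threshold had 98.4, 98.5 and 98.6 RPM in B6, and the 3 nearest below it had 98.0, 97.9 and 97.9 RPM. Interval width did not separate the sets, with medians of 2758 and 2780 bp.

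The strongest unlisted hotspot was at chr5:71870525-71873807, within Gabrb1, which encodes a GABA receptor subunit. In the order B6, Ewsr1 CKO and Prdm9 het it had 1095, 861.5 and 166 RPM of DMC1, and its H3K4me3 was 1.27 RPM. The strongest listed hotspots, at chr1:68487445-68490678 within Erbb4, a receptor tyrosine kinase gene, and at chr12:4972671-4976035 within Atad2b, reached 1213 and 1194 RPM in B6. The 95th percentiles of B6 DMC1 were 337 RPM for unlisted and 497 RPM for listed hotspots. H3K4me3 at these 2 was 1.65 and 1.71 RPM. The third, at chr6:39638892-39641921 within the kinase gene Braf, had 1083 RPM of DMC1 in B6 and 2.35 RPM of H3K4me3. The listed intervals in these 3 hotspots carried 3.53, 3.29 and 7.19 RPM of H3K36me3 in Ewsr1 CKO. H3K36me3 at unlisted hotspots was not analysed here, because the table used gives that mark over the listed intervals.

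A neighbour of the Gabrb1 hotspot, 18.5 kb away at chr5:71852436-71854813, was also unlisted and held 521, 477 and 74.1 RPM in the same order. It is named here after its values were seen. The next 4 unlisted hotspots in order of B6 DMC1 were chr15:70384792-70387707 (595 RPM), chr14:31111188-31114025 within Pbrm1, a chromatin remodeller subunit gene (583 RPM), chr6:76140210-76142944 (579 RPM) and chr3:36886224-36889450 (539 RPM). In Ewsr1 CKO they had 560, 374, 933 and 402 RPM. Only the chromosome 6 hotspot was higher in Ewsr1 CKO than in B6 among these 4. In Prdm9 het they had 113, 53.2, 109 and 4.28 RPM, the last far below the others.

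H3K4me3 in Ewsr1 CKO was measured over every hotspot, listed or not. The unlisted hotspots had a median of 0.696 RPM (quartiles 0.555 and 0.953 RPM) and the listed ones 1.51 RPM (1.13 and 2.10 RPM), a ratio of 0.462. The median over all autosomal hotspots was 0.879 RPM, and 306 unlisted hotspots (69.7%) were below it. H3K4me3 chose the hotspots through the list, so this difference is part of the choice and is given as a description. The full ranges overlapped, but 65.6% of unlisted hotspots were below the 5th percentile of listed hotspots, 0.817 RPM. The lowest listed hotspot, a single extreme, had 0.450 RPM. Below it were 39 unlisted hotspots (8.88%), against 13.5% of all autosomal hotspots. At the other end, 60 unlisted hotspots (13.7%, Wilson interval 10.8 to 17.2%) were at or above the listed median. Of all autosomal hotspots, 21.5% were.

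**Figure D1:**
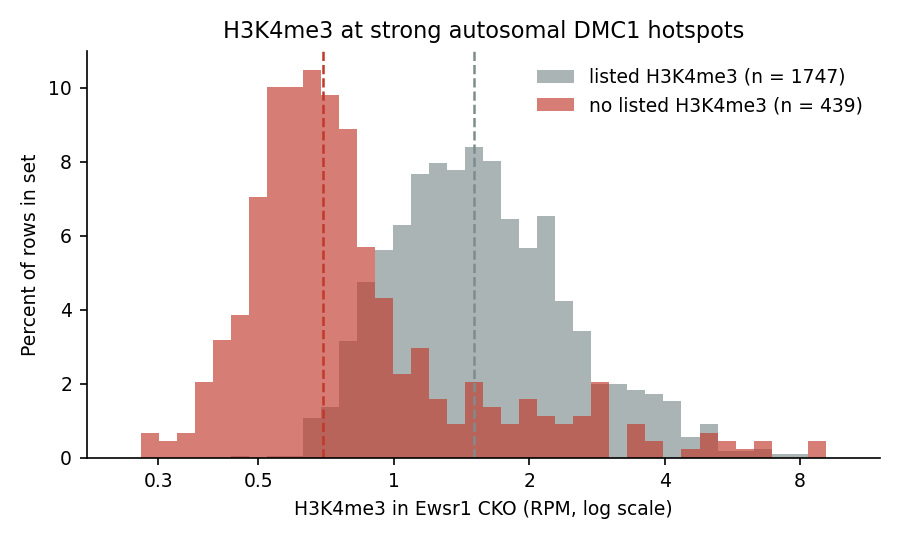
Distribution of H3K4me3 in Ewsr1 CKO (RPM, log scale) over 439 strong hotspots without a listed H3K4me3 interval (red) and 1747 with one (grey), as the percent of each set, with dashed lines at the medians of 0.696 and 1.51 RPM. The red distribution has a tail that reaches 8.75 RPM, beyond the highest grey value of 8.27 RPM.

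The tail of high H3K4me3 held the highest value of any autosomal DMC1 hotspot. Unlisted hotspots at chr19:61151791-61154940 and chr10:130542171-130544985 had 8.75 and 8.67 RPM, and chr8:31089970-31093158 within Dusp26, a phosphatase gene, had 6.85 RPM. The nearest end of a protein-coding gene was 10.95 kb away at Zfp950 on chromosome 19, 44.8 kb away at Vmn2r87 on chromosome 10 and 0.443 kb away at Dusp26. At the lower end, chr3:141913233-141916043 within Bmpr1b, a bone morphogenetic protein receptor gene, had 0.282 RPM with 144 RPM of DMC1 in B6. The hotspots at chr19:48898793-48901138 and chr3:53545275-53548200 followed, with 0.290 and 0.301 RPM of H3K4me3 and 136 and 169 RPM of DMC1 in B6. All 3 were strong DMC1 hotspots in B6 at the lowest H3K4me3 values of the set.

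The nearest listed H3K4me3 interval was a median of 237 kb from an unlisted hotspot, with quartiles of 74.8 and 591 kb. Leaving out an interval at the hotspot itself, the median distance was 136 kb for listed hotspots, 138 kb for all autosomal hotspots and 168 kb for weaker hotspots without an interval. An interval lay within 5 kb of 7 unlisted hotspots (1.59%) and of 1.05% of weaker hotspots without an interval. The share over all autosomal hotspots was 0.492%, but hotspots that overlap an interval could not count. The closest, on chromosome 4 at 134476770 to 134478513, lay 1.41 kb from a listed interval. The position of an interval at the hotspot itself is fixed by the choice, but the surroundings are not. The next DMC1 hotspot on the chromosome had a listed H3K4me3 interval for 172 unlisted hotspots (39.2%, Wilson interval 34.7 to 43.8%), for 980 listed ones (56.1%, 53.8 to 58.4%) and for 56.3% of all autosomal hotspots. The neighbours were of like strength, with median B6 DMC1 of 56.2 RPM beside unlisted and 51.8 RPM beside listed hotspots. Counting every hotspot within 1 Mb, 45.4% of those around unlisted hotspots had a listed interval, against 57.0% around listed hotspots. These shares treat hotspots as independent, which neighbours are not, and the intervals cover counting error only.

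Hotspots were also sparser around the unlisted ones, with a median of 6 others within 1 Mb against 8 around listed and 8 around all autosomal hotspots. The median distance to the next hotspot was 93.0 kb, against 75.2 kb for listed hotspots, 83.0 kb for all autosomal hotspots and 90.6 kb for weaker hotspots without an interval. Another unlisted strong hotspot was a direct neighbour of 86 unlisted hotspots (19.6%, Wilson interval 16.1 to 23.6%), of 9.73% of listed hotspots (8.43 to 11.2%) and of 9.56% of all autosomal hotspots. Unlisted hotspots were more often in the first 25% of the span of DMC1 hotspots on their chromosome, counted from the lowest coordinate. Of them 34.2% lay there (Wilson interval 29.9 to 38.7%), against 26.4% of listed hotspots (24.4 to 28.5%). Of all autosomal hotspots, 24.0% lay in that stretch. Within 10 Mb of the last DMC1 hotspot of the chromosome lay 7.06% of unlisted (5.02 to 9.85%), 5.32% of listed (4.37 to 6.48%) and 7.33% of all autosomal hotspots.

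The share of strong hotspots without a listed interval varied between autosomes. Chromosome 12 had the lowest share, 9 of 120 (7.50%, Wilson interval 3.996 to 13.6%), and chromosome 10 the highest, 35 of 113 (31.0%, 23.2 to 40.0%). The intervals of these 2 chromosomes did not overlap. On the remaining 17 autosomes the share ranged from 14.0% on chromosome 13 to 27.1% on chromosome 5. These extremes were picked from 19 autosomes after their values were seen.

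**Figure D2:**
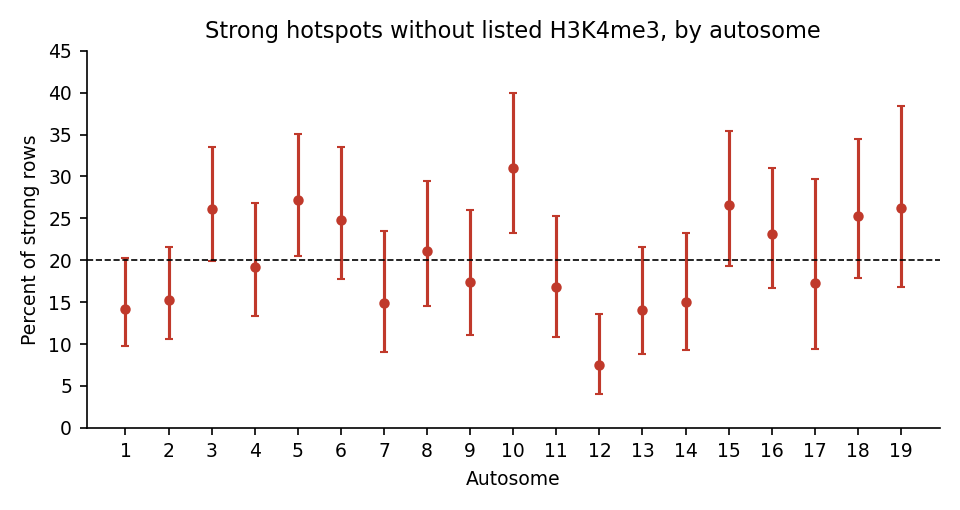
Percent of strong DMC1 hotspots on each autosome that had no listed H3K4me3 interval, with Wilson 95% intervals as bars and the share over all autosomes, 20.1%, as a dashed line. Chromosome 12 lies lowest at 7.50% and chromosome 10 highest at 31.0%.

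The deposited list of DMC1 hotspots is named as common to all 3 genotypes. Over all autosomal hotspots the lowest Prdm9 het value was 0 RPM, so being listed did not require signal in that column. The lowest Ewsr1 CKO value was 2.95 RPM, so some DMC1 in that genotype may follow from the list. In Ewsr1 CKO the unlisted hotspots had a median of 161 RPM, with 30.4 RPM at the lowest and 933 RPM at the highest. In Prdm9 het the median was 27.0 RPM, the lowest 0.183 RPM and the highest 166 RPM. The Prdm9 het column summed to far less than the others, 136064 RPM over autosomal hotspots against 713518 RPM for B6 and 765437 RPM for Ewsr1 CKO. Ratios are therefore given after each column was scaled to the B6 autosomal sum, so that they compare shares of the autosomal signal and not amounts. Unlisted hotspots took 10.7% of that signal in B6, 10.9% in Ewsr1 CKO and 9.80% in Prdm9 het. Listed hotspots took 52.7%, 47.5% and 51.1%. Between B6 and Ewsr1 CKO the listed share was thus lower by several percentage points and the unlisted share nearly the same. The sets differ in size, so equal percentage points are not equal relative changes. Both sets were chosen for high B6 DMC1, so a lower share outside B6 follows in part from the choice. All strong hotspots together took 63.4% in B6, 58.3% in Ewsr1 CKO and 60.9% in Prdm9 het.

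**Figure D3:**
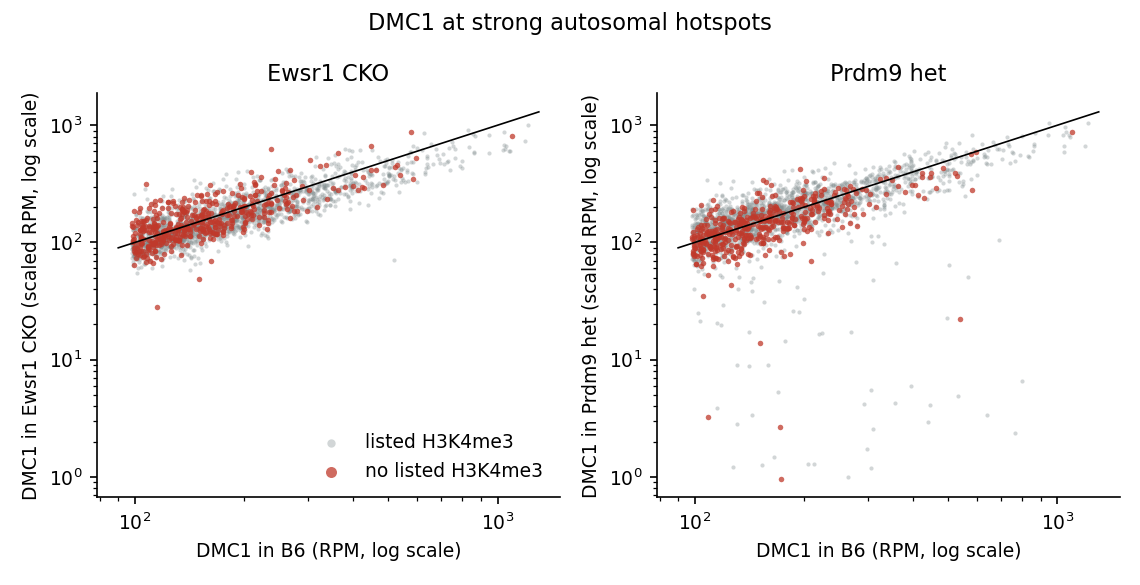
DMC1 at strong autosomal hotspots in Ewsr1 CKO (left) and Prdm9 het (right), as RPM scaled to the B6 autosomal sum, against DMC1 in B6 (RPM), all on log scales, with the line of equal values. Red points are the 439 hotspots without a listed H3K4me3 interval and grey points the 1747 with one. Most points follow the line, and 5 red points (1.14%) and 38 grey points (2.18%) were below 5 RPM in Prdm9 het before scaling. Over all autosomal hotspots, which are mostly weaker, the share was 30.2%.

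For Ewsr1 CKO over B6, the median log2 ratio, computed on scaled RPM plus 1, was -0.07 at unlisted hotspots (quartiles -0.28 and 0.26) and -0.16 at listed hotspots (-0.38 and 0.07). The difference between the medians was 0.10, a 1.07-fold difference. The median over all autosomal hotspots was 0.06. The ratio was above 0 at 45.8% of unlisted hotspots (Wilson interval 41.2 to 50.5%), 31.1% of listed ones (29.0 to 33.3%) and 55.8% of all autosomal hotspots, so the unlisted share lay between these. A rise of at least 2-fold was reached by 2 unlisted hotspots and a fall of at least 2-fold by 3. Over all autosomal hotspots 3.15% were at least 2-fold higher and 0.629% at least 2-fold lower, so the unlisted shares, 0.456% and 0.683%, were below the first of these and near the second. At listed hotspots the shares were 0.630% and 0.572%. The B6 value is in this ratio and also chose the hotspots, so a low ratio at strong hotspots follows in part from the choice. The ratio fell with B6 strength in both sets and unlisted hotspots were weaker, so the choice does not bear alike on the sets. With strong hotspots chosen by Ewsr1 CKO DMC1 instead, which favours high ratios in its turn, the difference between the medians was 0.27. The unlisted median was then 0.20, and it was 0.03 with the autosomal median as the threshold. Its sign thus depends on how strength was set.

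The 3 highest ratios of Ewsr1 CKO over B6 among unlisted hotspots were at chr15:49765878-49768896 (108, 340 and 30.1 RPM in B6, Ewsr1 CKO and Prdm9 het), chr5:83442687-83445747 (237, 670 and 42.8 RPM) and chr1:142165931-142168955 (114, 244 and 29.8 RPM). Their log2 ratios were 1.55, 1.40 and 0.996, the third just under 2-fold with the 1 RPM added. All 3 had H3K4me3 between 0.794 and 0.810 RPM, within the middle of the unlisted range. If the smallest step of each column stood for 1 read, the sampling standard errors of these log2 ratios were 0.063, 0.044 and 0.067, which cover counting error only. At the opposite end, the chromosome 10 hotspot named above for its H3K4me3 fell from 115 to 30.4 RPM (log2 ratio -1.98) and the chromosome 19 hotspot from 150 to 52.0 RPM (-1.61). Each is the last DMC1 hotspot in the table for its chromosome. The hotspot at chr8:121820072-121822515 within Klhdc4 went from 162 to 73.9 RPM (-1.22) with 6.29 RPM of H3K4me3. The 3 lowest ratios among unlisted hotspots were thus all at high H3K4me3. Whether H3K4me3 or the place on the chromosome has a part in these ratios was not tested.

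For Prdm9 het over B6 the order was the opposite, with a median log2 ratio of -0.11 (quartiles -0.39 and 0.14) at unlisted hotspots and 0.01 (-0.27 and 0.29) at listed ones. The difference was -0.12. The median over all autosomal hotspots was -0.03. The ratio was above 0 at 37.8% of unlisted hotspots (33.4 to 42.4%), 51.5% of listed hotspots (49.2 to 53.9%) and 47.3% of all autosomal hotspots. At least 2-fold lower values occurred at 16 unlisted hotspots (3.64%), against 5.27% of all autosomal hotspots, and at least 2-fold higher values at 4 (0.911%), against 2.28%. Neither share exceeded its background, and at listed hotspots the shares were 4.35% lower and 0.687% higher.

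The unlisted hotspots with the least DMC1 in Prdm9 het were ordinary in the other genotypes. Such low values were not particular to them: the lowest log2 ratio was -6.48 at unlisted and -7.83 at listed hotspots. The hotspot at chr14:54231743-54234538 had 173 RPM of DMC1 in B6 and 187 RPM in Ewsr1 CKO, but 0.183 RPM in Prdm9 het (log2 ratio -6.48). In the same order the Dusp26 hotspot on chromosome 8 had 172, 148 and 0.507 RPM (-5.56). At chr5:23141697-23144258 within Lhfpl3 the values were 109, 100 and 0.624 RPM (-4.69). The nearest protein-coding gene ends were 0.947 kb away at Dad1 and 0.443 kb away at Dusp26 for the first 2, and 131 kb away for the third. The first 2 of these had H3K4me3 of 5.51 and 6.85 RPM in Ewsr1 CKO, in the top of the unlisted range, and the third had 0.306 RPM, near its bottom. The 3 highest ratios were at chr16:32928926-32932018 within Lrch3 (from 154 in B6 to 65.3 RPM in Prdm9 het, 1.15), chr16:21352202-21354769 (195 and 81.1 RPM, 1.12) and chr8:52746435-52749577 (158 and 62.6 RPM, 1.05). Their H3K4me3 values were 2.98, 5.20 and 1.11 RPM. The 3 lowest and the 3 highest ratios in Prdm9 het both included hotspots with high H3K4me3. As deposited, without scaling, the 3 highest were below B6, with log2 ratios of -1.22, -1.25 and -1.32. The chromosome 14 hotspot here and the one within Pbrm1 lay on an autosome with low Prdm9 het over B6 in both sets. The median log2 ratio on chromosome 14 was -0.387 at unlisted and -0.407 at listed hotspots. On the other autosomes the listed medians ranged from -0.0934 on chromosome 4 to 0.121 on chromosome 13.

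Ewsr1 CKO over Prdm9 het does not contain the B6 value that chose the hotspots. Its median log2 ratio was 0.14 at unlisted hotspots (quartiles -0.16 and 0.44) and -0.13 at listed hotspots (-0.47 and 0.21), a difference of 0.27 or 1.21-fold. The median was -0.06 over all strong hotspots and 0.14 over all autosomal hotspots, which are mostly weaker. Weaker hotspots had a median of 0.37 without a listed interval and 0.01 with one, so a difference in the same direction stood below the strength threshold. The ratio was above 0 at 63.6% of unlisted hotspots (59.0 to 67.9%), 41.04% of listed ones (38.8 to 43.4%) and 59.6% of all autosomal hotspots. Unlisted medians exceeded listed medians on 19 of 19 autosomes, by 0.09 to 0.49. In comparison, the difference for Ewsr1 CKO over B6 was positive on 15 of 19 autosomes and that for Prdm9 het over B6 negative on 15 of 19. The 3 ratios share columns, so they are not independent of each other. All autosomes come from the same columns too, so counts of autosomes are not replication. The sign of a median can depend on the scaling. Scaled to the sum over all hotspots, X included, the unlisted median of Ewsr1 CKO to B6 became 0.03. That of Prdm9 het to B6 became 0.0026. The unlisted median for Ewsr1 CKO over Prdm9 het stayed positive under every scaling run. It was 0.135 with the sum over all hotspots, 0.0037 with the autosomal median and 2.60 as deposited. Its size thus depended on the scaling, and so would the share above 0, which was not recomputed. Scaling shifts both sets alike, so it bears on the medians and hardly on the difference between the sets.

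At least 2-fold higher values of Ewsr1 CKO over Prdm9 het occurred at 15 unlisted hotspots (3.42%, with 8.51% among all autosomal hotspots), and at least 2-fold lower values at 5 (1.14%, with 2.89%). At listed hotspots, above the same strength threshold, the shares were 3.84% higher and 4.46% lower, with Wilson intervals for the lower share of 3.59 to 5.54% at listed and 0.487 to 2.64% at unlisted hotspots. Among weaker hotspots without an interval 14.2% were at least 2-fold higher. The 3 highest and the 3 lowest of these ratios were at hotspots already named. The highest, 6.48, 5.25 and 4.47, belonged to the hotspots with the lowest Prdm9 het values, and the lowest, -2.80, -2.43 and -2.15, to those with the lowest ratios of Ewsr1 CKO over B6. The quartiles of the 2 sets overlap, so the ratio does not separate single unlisted from single listed hotspots.

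Splitting the strong hotspots into 4 classes of B6 DMC1 kept the difference in each class. For Ewsr1 CKO over Prdm9 het the unlisted median exceeded the listed median by 0.32, 0.32, 0.25 and 0.20 from the weakest class to the strongest. For Ewsr1 CKO over B6 the differences were 0.13, 0.12, 0.07 and 0.13, and for Prdm9 het over B6 they were -0.21, -0.15, -0.18 and -0.08. The strongest class, from 233 to 1213 RPM, was not evenly matched, with a median B6 value of 279 RPM at 63 unlisted and 328 RPM at 483 listed hotspots. In the other classes the unlisted B6 median minus the listed one was -1.29, -2.19 and 2.64 RPM.

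**Figure D4:**
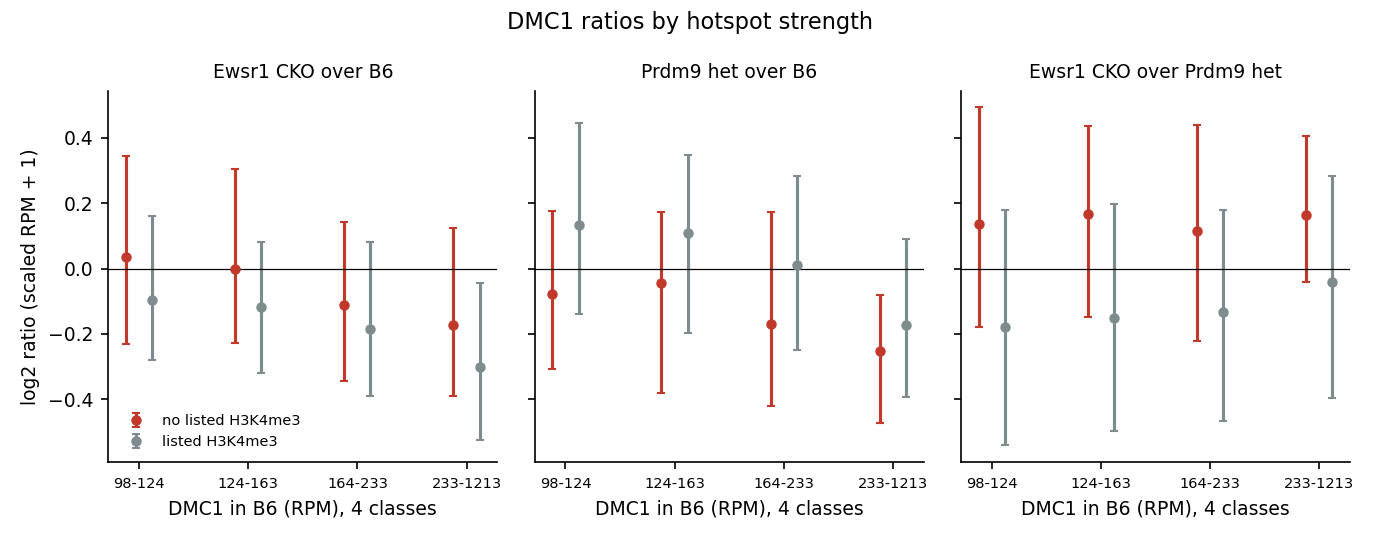
Median log2 ratios (points) with quartiles (bars) for 3 pairs of DMC1 columns in 4 classes of B6 DMC1 (RPM), at strong hotspots without a listed H3K4me3 interval (red) and with one (grey). Red lies above grey in every class for Ewsr1 CKO over B6 and Ewsr1 CKO over Prdm9 het, and below grey in every class for Prdm9 het over B6, with overlapping quartiles.

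The ratio of Ewsr1 CKO over Prdm9 het also moved with the H3K4me3 value itself. Between 0.6 and 0.8 RPM of H3K4me3 the median log2 ratio was 0.15 at 132 unlisted and 0.16 at 75 listed hotspots, and between 0.8 and 1 RPM it was 0.14 at 60 and 0.11 at 205. Among all strong hotspots below 1 RPM, 339 unlisted and 283 listed, the sets differed by 0.02, against 0.27 over all H3K4me3 levels. The same restriction brought the difference in Ewsr1 CKO over B6 to 0.0002 and that in Prdm9 het over B6 to -0.07. For Ewsr1 CKO over Prdm9 het between 1 and 1.5 RPM the medians were 0.18 at 40 unlisted and -0.04 at 578 listed hotspots, and between 1.5 and 3 RPM they were 0.10 at 42 and -0.21 at 721. At 3 RPM and above both were low, -0.57 at 18 unlisted and -0.73 at 165 listed hotspots. The quartiles of the sets overlapped in these classes. The lowest class, under 0.6 RPM, held 147 unlisted and only 3 listed hotspots. The class limits were set after the values were seen, and the classes with 18 and 3 hotspots are thinly filled. None of the 3 ratios kept its order in every class. For Ewsr1 CKO over Prdm9 het the unlisted median was below the listed one under 0.6 RPM (0.23 and 0.27). Between 0.6 and 0.8 RPM it was also slightly below, and it was above in the remaining classes. For Ewsr1 CKO over B6 the unlisted medians were below the listed ones between 0.6 and 0.8 RPM (0.0007 and 0.01), between 0.8 and 1 RPM (-0.18 and -0.01) and between 1 and 1.5 RPM (-0.18 and -0.10), and above them in the other 3 classes. For Prdm9 het over B6 the unlisted median was above the listed one below 0.6 RPM (-0.10 and -0.38), between 0.6 and 0.8 RPM (-0.10 and -0.12) and at 3 RPM and above (0.59 and 0.30), and below it in the other 3.

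**Figure D5:**
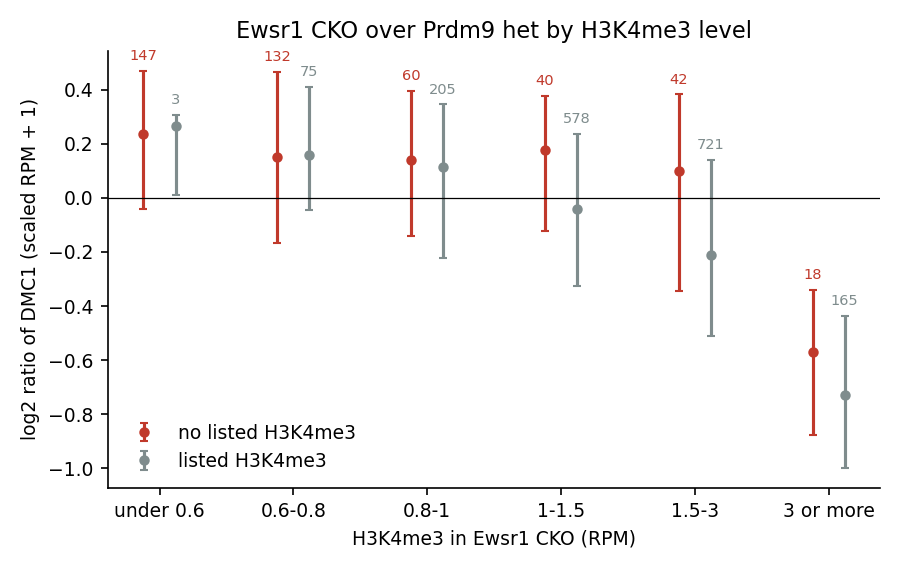
Median log2 ratio of DMC1 in Ewsr1 CKO over Prdm9 het (points) with quartiles (bars) in 6 classes of H3K4me3 in Ewsr1 CKO (RPM), at strong hotspots without a listed interval (red) and with one (grey), with the number of hotspots above each bar. The medians lie close together below 1 RPM and farther apart between 1 and 3 RPM, with overlapping quartiles.

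The 60 unlisted hotspots with H3K4me3 at or above the listed median lay a median of 16.9 kb from the end of a protein-coding gene, against 23.7 kb for the 91 with intermediate H3K4me3 and 81.6 kb for the 288 whose H3K4me3 was below the 5th percentile of listed hotspots. Among listed hotspots at or above the same median the distance was 24.8 kb. For Ewsr1 CKO over Prdm9 het the 60 had a median of -0.16, against 0.14 for the 91 and 0.18 for the 288, and the listed hotspots at or above the same median had -0.30. The median of Prdm9 het over B6 was 0.13 in the 60, -0.20 in the 91 and -0.10 in the 288, with 0.06 at those listed hotspots. Median DMC1 in B6 was 179, 158 and 139 RPM in the 60, the 91 and the 288. H3K4me3 of 5 RPM or more was found at 8 unlisted hotspots (1.82%), at 1.14% of listed hotspots and at 0.503% of all autosomal hotspots. The 8 included the 3 with the lowest ratios of Ewsr1 CKO over B6 and 2 of the 5 that had under 5 RPM of DMC1 in Prdm9 het.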

How the data were processed

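ChIP-seq values for DMC1, H3K4me3 and H3K36me3 in mouse spermatocytes were used as deposited by the authors, in RPM (reads scaled to library size) over listed intervals. The submitters' processing notes name BWA 0.5.10, Trimmomatic 0.32 and mm10, and the peak caller is not given in the sources used here. Coordinates are printed as the deposited tables give them. Another 4 columns of per-sample values belong to no sample of this series and were not used. All B6 and Ewsr1 CKO values were whole multiples (tolerance 0.05) of 0.129 and 0.246 RPM. If a step is 1 read, unlisted hotspots had 765 to 8517 reads in B6 and 124 to 3799 in Ewsr1 CKO. The depth of the Prdm9 het column is unknown.

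Overlap meant at least 1 shared bp. The Ewsr1 CKO and Prdm9 het DMC1 columns were multiplied by 0.932 and 5.24 to match the B6 sum over autosomal hotspots, and 1 RPM was added before log2 ratios. With 1 value per group no test across samples was possible and none was run. Wilson 95% intervals describe counts of hotspots. Hotspots named were the 5 strongest, the 3 highest and 3 lowest in each ratio and in H3K4me3, the 3 on each side of the threshold, and the 3 strongest listed. Those holding a transcription start were added after their values were seen. The members, comparisons and lists were chosen with earlier results of these data known. Gene bounds and promoter sequences came from RefSeq (GRCm38.p6). The promoter table holds 16457 of 20665 autosomal protein-coding genes, so distances were taken to gene bounds. The ratio and overlap code was tested on simulated data, overlaps also against bedtools 2.31.1. Python 3.11.15 with numpy 2.4.6, scipy 1.17.1, pandas 2.3.3 and matplotlib 3.10.9 was used. Alternatives changed the scaling, pseudocount, strength threshold, overlap and chromosomes, and the closing section gives their effect.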

Additional observations from a re-analysis of the deposited data

How the results depend on the processing

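Of the values set between unlisted and listed hotspots, 51 stayed within a tolerance under the alternatives run and 11 moved beyond it. The tolerance was the Wilson interval for the share and, for a difference of medians, the combined half-widths of the 95% intervals of both medians, so it was narrower for H3K4me3 than for the ratios relative to their size. The 3 other scalings shift both sets alike and hardly move a difference. The other pseudocounts also moved the differences little, and the other overlap rules left 438 to 440 unlisted hotspots, against 439. Many of the 51 thus come from alternatives that could hardly change a difference. The unlisted share was 29.1% with the autosomal median as the threshold, 14.3% for the top 10% and 23.7% when strength was taken from Ewsr1 CKO. The H3K4me3 difference was -0.742 RPM with the median threshold. The difference in Prdm9 het over B6 was -0.175 with the median threshold, -0.0552 with strength from Ewsr1 CKO and -0.0719 among hotspots below 1 RPM of H3K4me3. The difference in Ewsr1 CKO over Prdm9 het was 0.218 in the top 10% and 0.0233 below 1 RPM. The difference in Ewsr1 CKO over B6 was 0.274 with strength from Ewsr1 CKO and 0.000169 below 1 RPM. The subset below 1 RPM, the set without chromosome 14 and the set without hotspots within 10 Mb of the last one were chosen after seeing the data. Under these alternatives no pooled difference between the sets changed sign, although single classes of H3K4me3 did, as the report gives. Of the unlisted medians themselves, 33 stayed within their 95% interval and 17 moved beyond it. With scaling to the sum over all hotspots 2 changed sign. Values as deposited, the median threshold and strength from Ewsr1 CKO each changed the sign of 1. Of 435 values at named hotspots 39 had another sign than reported, 29 with values as deposited, 5 with scaling to the sum over all hotspots and 5 with scaling to the autosomal median. Of these, 7 had been at least 2-fold, all with values as deposited: Ewsr1 CKO over Prdm9 het became 0.0357 at chr19:61151791, 0.321 at chr8:121820072, 1.08 at chr16:32928926 and 1.40 at chr16:21352202, and Prdm9 het over B6 became -1.22, -1.25 and -1.32 at chr16:32928926, chr16:21352202 and chr8:52746435. No paired analysis was possible because the deposited columns carry no replicate, and leaving out single replicates was not run for the same reason.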
